A study of Mus musculus with 6 samples.

Results

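Keratins are the intermediate filament proteins of epithelial cells, and 10 keratin genes of the 23725 genes in the table are described here in colonic epithelial cells with and without the glucocorticoid receptor. They were taken by name: 6 keratins of simple epithelium (Krt7, Krt8, Krt18, Krt19, Krt20 and Krt23) and 4 keratins of stratified epithelium (Krt5, Krt6a, Krt13 and Krt14). The list was drawn up with the wild-type to knockout difference of these genes known, so that difference is given as a description. No p-value is printed for a listed keratin, and where the threshold of the fit over all genes is mentioned for one, it is a label of the size of a known difference and supports nothing. The table holds 54 keratin genes in all, and the 44 unlisted ones were examined as well.

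RNA was sequenced from colonic epithelial cells of C57BL/6J mice that had been enriched on a Percoll gradient and not cultured, in 3 wild-type and 3 knockout libraries. The knockout animals are given as B6-Cg-Nr3c1-Vil-Cre/ERT2 (Nr3c1IEC-/-), a genotype in which a tamoxifen-inducible Cre under the villin promoter removes Nr3c1, the glucocorticoid receptor gene, from intestinal epithelium. Both groups carry the same treatment text: tamoxifen went into the peritoneum on 5 consecutive days, and collection followed 7 days after the first dose. The sources used here do not say whether the wild-type mice carried the Cre transgene, how old the mice were, or whether each library came from a separate mouse. An effect of Cre with tamoxifen cannot be told apart from loss of the receptor. Each group had n = 3 libraries of 10089313 to 12030844 reads. Nr3c1 was 1120, 967.1 and 196.7 normalized reads for wild type replicates 1, 2 and 3 as labelled, and 144.7, 123.1 and 174.7 in knockout replicates 1, 2 and 3. At the deleted gene the library labelled wild type replicate 3 thus looked unlike its label. It was left in its labelled group, and each wild-type mean and direction given here contains it. The preparation was epithelial by its markers. The summed level of 10 epithelial markers was 136600 to 149599 normalized reads in wild type and 149280 to 164123 in the knockout. The list includes the intestinal genes Cdh17, Vil1 and Lgals4, and Lgals4 gave 57792 of the wild-type mean of 143671. Of the 10, Cdh17 and Vil1 rose, Grhl2 fell and 7 were not called, where 15.0% of all genes rose and 15.4% fell.

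A keratin filament is built from heterodimers of a type I (acidic) and a type II (basic) keratin, so the genes are expressed in matched combinations. KRT8 with KRT18 or KRT19 is the filament system of simple epithelia such as the colon, where KRT20 marks differentiated cells and KRT7 is a keratin of ductal and glandular epithelia. KRT5 with KRT14 belongs to the basal layer of stratified epithelia, KRT4 with KRT13 to the upper layers of non-cornified mucosa such as the oesophagus, and KRT6 with KRT16 to hair follicles and to skin responding to injury. Of the listed genes, Krt5, Krt6a, Krt7 and Krt8 are type II and the other 6 are type I.

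The genes lie in the keratin clusters of chromosomes 11 and 15. On chromosome 11 of GRCm38, all on the minus strand, stand Krt20 (Entrez 66809, 99428385 to 99438153), Krt23 (Entrez 94179, 99477973 to 99493120), Krt13 (Entrez 16663, 100117327 to 100121566), Krt19 (Entrez 16669, 100140810 to 100145926) and Krt14 (Entrez 16664, 100203162 to 100207510). On chromosome 15 stand Krt7 (Entrez 110310, 101412403 to 101427806, plus strand), Krt6a (Entrez 16687, 101689928 to 101694305, minus strand), Krt5 (Entrez 110308, 101707069 to 101712905, minus strand), Krt8 (Entrez 16691, 101996711 to 102004342, minus strand) and Krt18 (Entrez 16668, 102028216 to 102032026, plus strand). Krt18 is the type I gene that sits in the type II cluster, beside its partner Krt8. The members that met the threshold described below were spread over both clusters, and Krt19, which did not meet it, lies between Krt13 and Krt14.

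Promoter windows from RefSeq on GRCm38.p6, which run from 250 bases before to 50 bases after a gene's start, were available for 8 of the 10 genes. Of these, 7 had a window at the annotated gene start. The 4 windows shown were chosen to set the stratified Krt13 and the simple Krt7 and Krt20, which were all higher in the knockout libraries, against Krt8, which was not. Capitals mark matches on either strand to the TATA-like motif ATAAAA, to the half-site of the glucocorticoid response element, AGAACA, and to the AP-1 motif, TGANTCA.
Krt13 (chr11:100121517-100121816, minus strand): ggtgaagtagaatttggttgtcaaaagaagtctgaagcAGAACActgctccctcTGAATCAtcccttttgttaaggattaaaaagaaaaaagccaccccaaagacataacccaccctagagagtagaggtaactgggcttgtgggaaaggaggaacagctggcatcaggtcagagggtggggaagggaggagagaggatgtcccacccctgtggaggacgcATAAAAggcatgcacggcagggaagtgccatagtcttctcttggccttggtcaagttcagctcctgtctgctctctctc
Krt7 (chr15:101412153-101412452, plus strand): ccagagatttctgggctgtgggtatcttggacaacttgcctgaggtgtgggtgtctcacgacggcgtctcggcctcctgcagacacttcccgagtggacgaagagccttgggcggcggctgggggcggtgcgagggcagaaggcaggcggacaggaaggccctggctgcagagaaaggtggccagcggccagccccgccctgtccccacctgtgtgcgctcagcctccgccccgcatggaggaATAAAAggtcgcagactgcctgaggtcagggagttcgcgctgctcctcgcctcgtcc
Krt20 (chr11:99438104-99438403, minus strand): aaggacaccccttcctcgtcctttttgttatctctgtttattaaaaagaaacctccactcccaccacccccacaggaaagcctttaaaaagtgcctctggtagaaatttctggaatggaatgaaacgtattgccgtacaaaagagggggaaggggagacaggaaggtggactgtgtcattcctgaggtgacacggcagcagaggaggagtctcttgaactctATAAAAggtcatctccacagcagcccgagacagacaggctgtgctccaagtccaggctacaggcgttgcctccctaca
Krt8 (chr15:102004293-102004592, minus strand): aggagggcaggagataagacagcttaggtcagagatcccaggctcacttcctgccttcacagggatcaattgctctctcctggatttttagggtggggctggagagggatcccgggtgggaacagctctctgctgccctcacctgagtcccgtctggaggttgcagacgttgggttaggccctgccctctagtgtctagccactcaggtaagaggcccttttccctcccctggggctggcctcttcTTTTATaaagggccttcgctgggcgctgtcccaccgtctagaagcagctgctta
The motif ATAAAA was chosen after the windows were seen, and it stood on the gene's own strand in 5 of the 7 windows. It began at base 222 in Krt13, 223 in Krt20 and 244 in Krt7, where base 251 is the first base of the gene. It also began at base 222 in Krt5 and at base 220 in Krt23, and Krt23 overlapped between the groups. Krt8 held ATAAAA on the opposite strand, and at that place its own strand reads TATAAA. Of 32851 promoter windows of 300 bases, 18.5% held ATAAAA on either strand. AGAACA was found in Krt13 and Krt18 and in 19% of all windows, and TGANTCA among these 7 windows in Krt13 only, against 7.81% of all windows. The full palindromic glucocorticoid response element was in none of the members' windows and in 0.00913% of all. GGGCGG, the GC box, was in Krt7 alone of the 7 and in 35.7% of all windows. These are matches of letters and not binding sites.

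Values below are normalized reads, in steps that are the same for every gene of a library, as gene counts divided by 1 size factor per library give. A log2 change is knockout minus wild type on the log2(value + 1) scale with its standard error (SE) from limma fitted to all 12837 genes tested, that is, all genes that reached 10 normalized reads in 3 or more libraries. A gene is called where the Benjamini-Hochberg adjusted p of that fit is under 0.05. Of the 10 keratins 9 were tested, all but Krt5. Krt13 and Krt6a passed the filter only through their knockout libraries, where they are high, which favoured their being called. Of those 9, 4 were called higher in the knockout (Krt7, Krt20, Krt6a and Krt13), against 15.0% of all genes, and 0 lower, against 15.4%. The median log2 change was 0.99 for the 9 keratins and 0.01 for all genes. At an unadjusted p under 0.05 limma placed 5 higher and 0 lower, against 22.1% and 22.4% of all genes. On the recovered reads edgeR and DESeq2 each called 5 higher (14.7% and 16.7% of all genes) and 0 lower (15.6% and 15.7%). The groups did not overlap for 6 of the 10 keratins, all of them higher in the knockout, while 15.9% of all 23725 genes, and 25.2% of those tested, had every knockout library above every wild-type library. With any 1 library left out, 3 to 5 of the 9 were called higher, where the share of all genes was 7.56%, 7.77% and 12.6% for wild type replicates 1, 2 and 3 and 12.3%, 13.9% and 12.5% for knockout replicates 1, 2 and 3. Nothing is read from these counts, since the list was chosen from this contrast.

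**Figure D1:**
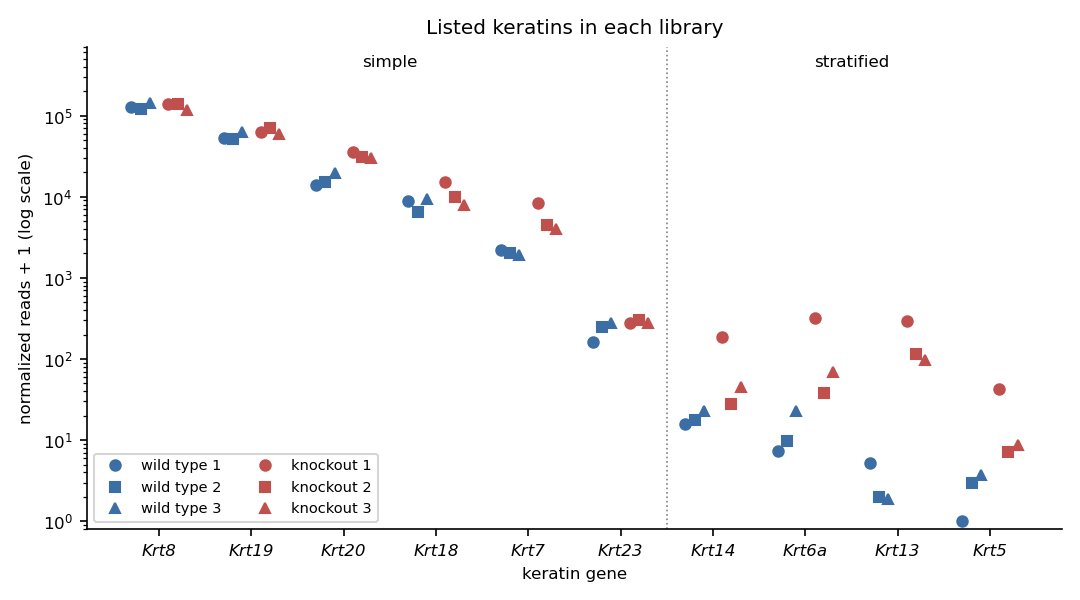
Normalized reads plus 1 on a log scale for the 10 keratins in the 6 libraries, wild type in blue and knockout in red, 1 point per library. The simple keratins Krt8, Krt19, Krt18 and Krt23 overlap between the groups, and knockout replicate 1 is the highest point of all 4 stratified keratins.

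Among the simple keratins Krt8, Krt19, Krt18 and Krt23 overlapped between the groups. Krt8, the type II keratin of simple epithelia, was 126870, 121357 and 144280 normalized reads in the libraries labelled as wild type and 137994, 137777 and 116788 in the knockout libraries. The groups overlapped fully and the knockout to wild type ratio of means was 1 (log2 change -0.00, SE 0.28). Krt8 alone took 1.199% ± 0.112 (SD, n = 3) of all reads in the wild-type libraries and 1.104% ± 0.0818 (SD, n = 3) in the knockout. Krt19, a type I keratin that lacks most of the tail domain, was 52350, 52017 and 63164 in wild type and 62834, 69681 and 58491 in the knockout, again overlapping (log2 change 0.19, SE 0.21). Krt18, the usual type I partner of Krt8, was 8826, 6550 and 9235 in wild type and 15121, 9891 and 8000 in the knockout. Knockout replicate 1 was the high library for Krt18 and knockout replicate 3 lay within the wild-type range (log2 change 0.39, SE 0.25, and 0.13 without knockout replicate 1). Krt23 was 162.4, 246.4 and 278.7 in wild type and 272.6, 299 and 274 in the knockout (log2 change 0.33, SE 0.20), and its low value was that of wild type replicate 1, without which the log2 change was 0.10.

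Krt20 and Krt7 were the simple keratins with higher levels in every knockout library. Krt20 was 14008, 15341 and 19392 in the libraries labelled as wild type and 35312, 30514 and 30046 in the knockout libraries. The lowest knockout library stood well above the highest wild-type library, with means of 16247 ± 2804 and 31958 ± 2914 (SD, n = 3), a ratio of 1.97 (log2 change 0.99, SE 0.18). Leaving out any library kept the log2 change of Krt20 between 0.89 and 1.12. Krt7 was 2218, 2008 and 1890 in wild type and 8267, 4487 and 4034 in the knockout. Here too the groups were apart, with means of 2039 ± 166.5 and 5596 ± 2324 (SD, n = 3) and a log2 change of 1.38 (SE 0.25). Knockout replicate 1 had 1.94 times the mean of the other knockout libraries for Krt7, and without it the log2 change was 1.06.

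Levels of different genes were compared as normalized reads per kilobase of the RefSeq-linked GENCODE transcript. In the wild-type libraries the order was Krt8 (66821 ± 6111, SD, n = 3), Krt19 (35434 ± 4024), Krt20 (8431 ± 1455), Krt18 (5709 ± 1007), Krt7 (497.9 ± 40.6) and Krt23 (146 ± 38.4), with no overlap between neighbours. Below them came Krt14 (10.5 ± 2.14 per kilobase), Krt6a (5.42 ± 3.66), Krt13 (1.24 ± 1.15) and Krt5 (0.711 ± 0.641), where Krt14 overlapped Krt6a and Krt13 overlapped Krt5. The length of Krt7 is that of a transcript of 4094 bases, against 1437 to 2278 bases for the other 9. In the knockout libraries the simple keratins kept this order, and Krt13 (102.3 ± 66.9 per kilobase) stood above Krt6a (61.7 ± 67.3) and Krt14 (50.5 ± 51.7), with overlapping values. In knockout replicate 1 Krt13 reached 179.4 per kilobase, above Krt23 in that library at 174.2.

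All 4 stratified keratins were low in the wild-type libraries, Krt13 and Krt5 at 0 to 4 reads a library and Krt6a and Krt14 at 6 to 24, and each was higher in every knockout library. Krt13 was 4.2, 1 and 0.9 normalized reads in the libraries labelled as wild type and 296.7, 113.8 and 97.4 in the knockout libraries. The wild-type libraries held 6 reads of Krt13 in all and the knockout libraries 495, a ratio of 78.6 per read sequenced (exact 95% binomial interval 35.8 to 215, counting error only, and 50.7 without knockout replicate 1; log2 change 5.79, SE 0.56). Krt6a, an injury-responsive type II keratin, was 6.4, 8.8 and 21.9 in wild type and 316.6, 37.2 and 67.8 in the knockout (log2 change 2.99, SE 0.77). The groups did not overlap, and the highest wild-type value was that of the library labelled wild type replicate 3. Omitting wild type replicate 1, wild type replicate 2, or else knockout replicate 3 ended the call of Krt6a, at log2 changes of 2.65, 2.86 and 3.22. Omitting knockout replicate 1 moved it most, to 2.12, and it was then still called.

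Krt14 and Krt5 form the basal-layer pair. Krt14 was 14.9, 16.6 and 21.9 normalized reads in wild type and 186.6, 26.9 and 43.9 in the knockout. The groups did not overlap, but limma did not call Krt14 (log2 change 1.73, SE 0.64), and its log2 change was 0.93 without knockout replicate 1. Without knockout replicate 2 limma called it, at 2.31. With all libraries edgeR and DESeq2 called Krt14 higher, as they did 14.7% and 16.7% of all genes. Krt5 was 0, 2 and 2.7 in wild type and 41.9, 6.2 and 7.6 in the knockout, too low for the filter. Without a filter it was called higher, as were 11.3% of the genes then tested. Its reads numbered 5 in the wild-type and 54 in the knockout libraries, of which 40 came from knockout replicate 1. The ratio was 10.3 per read sequenced (exact 95% binomial interval 4.15 to 33, counting error only), and 4.02 without knockout replicate 1.

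Set against each other, the stratified keratins had a median log2 change of 2.99 over the 3 tested and the simple keratins 0.36 over 6, a difference of 2.63 that was 1.84 without knockout replicate 1 and 3.28 without knockout replicate 2. In absolute terms the stratified keratins stayed a trace. Of the summed per-kilobase level of the 10 keratins, 0.0126%, 0.0140% and 0.0185% was stratified in wild type, against 0.315%, 0.0749% and 0.0990% in the knockout. The summed stratified level was 17.8 ± 5.59 and 223 ± 194 reads per kilobase (SD, n = 3). Their ratio was 12.5, or 6.22 with knockout replicate 1 left out. The summed simple level was 117040 ± 12158 and 133018 ± 12151 reads per kilobase, a ratio of 1.14.

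Within the keratin pool Krt20 and Krt7 took a larger share and Krt8 a smaller share in every knockout library than in any wild-type library. All keratin genes together took 1.91%, 1.79% and 2.18% of wild-type reads and 2.12%, 2.17% and 1.91% of knockout reads, so the total overlapped. Within that total Krt20 took 6.84%, 7.75% and 8.11% of keratin reads in wild type and 13.5%, 12% and 13.7% in the knockout. Krt8 took 62%, 61.3% and 60.4% of keratin reads in wild type and 52.7%, 54.3% and 53.4% in the knockout. Krt7 took 1.08%, 1.01% and 0.790% in wild type and 3.15%, 1.77% and 1.84% in the knockout. The ratio of type I to type II level over the 10 keratins was 0.715, 0.731 and 0.765 in wild type and 0.952, 0.940 and 0.965 in the knockout, tight within each group and apart between them. Nearly all of the type II level was Krt8, with 66821 of 67325 reads per kilobase in wild type and 66830 of 68267 in the knockout. The mean type I level was 49732 and 64974, of which Krt20 was 8431 and 16584, so the ratio in part repeats the rise of Krt20. Krt20 stood at 0.126 ± 0.0124 of the per-kilobase level of Krt8 in wild type and at 0.249 ± 0.0206 in the knockout (SD, n = 3).

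**Figure D2:**
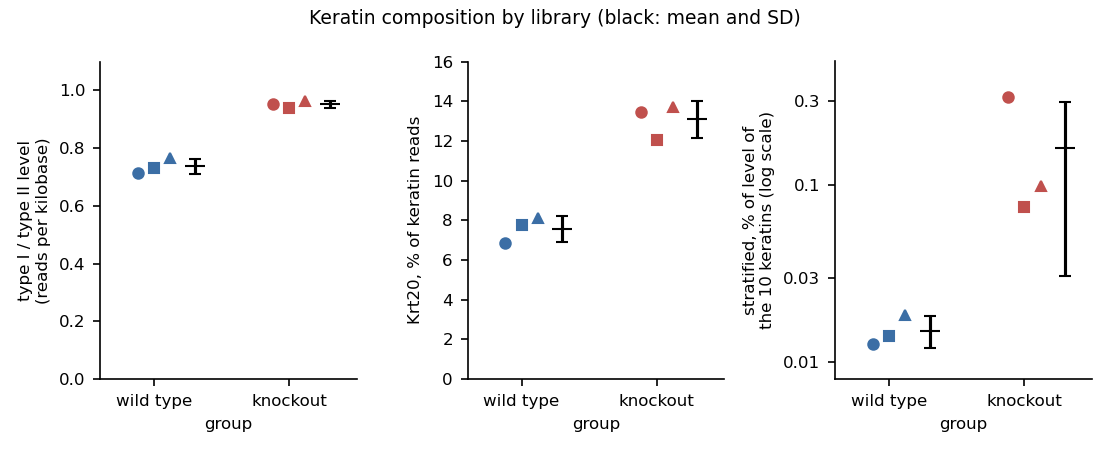
Type I to type II level over the 10 keratins (left), Krt20 as a percent of keratin reads (middle) and the stratified keratins as a percent of the per-kilobase level of the 10 keratins on a log axis (right), 1 point per library with the mean and SD of each group of 3 in black. The left and middle values are tight within each group, and the stratified share of 0.315% in knockout replicate 1 stands above 0.0749% and 0.0990% in the other knockout libraries.

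The stratified keratins differed in how they were spread over the knockout libraries. Knockout replicate 1 was the highest library for all 4 of them, as it was for 3 of the 6 simple keratins and 30.5% of all genes tested. It had 5.27 times the mean of the other knockout libraries for Krt14, 6.03 times for Krt6a and 6.06 times for Krt5, but 2.81 times for Krt13. Krt6a and Krt14 were higher in knockout replicate 3 than in knockout replicate 2, and highest among the wild-type libraries in the one labelled wild type replicate 3. Krt5 and Krt13 differed little between knockout replicates 2 and 3, with 6 and 8 reads of Krt5 and 110 and 102 reads of Krt13, and had too few wild-type reads to be ordered. Krt4, the unlisted type II partner of Krt13, was 2.1, 1 and 0.9 normalized reads in wild type and 34.6, 52.8 and 6.7 in the knockout, highest in knockout replicate 2. With 4 reads of Krt4 in the wild-type and 91 in the knockout libraries the ratio was 21.7 (exact 95% binomial interval 8.18 to 81.2, counting error only).

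**Figure D3:**
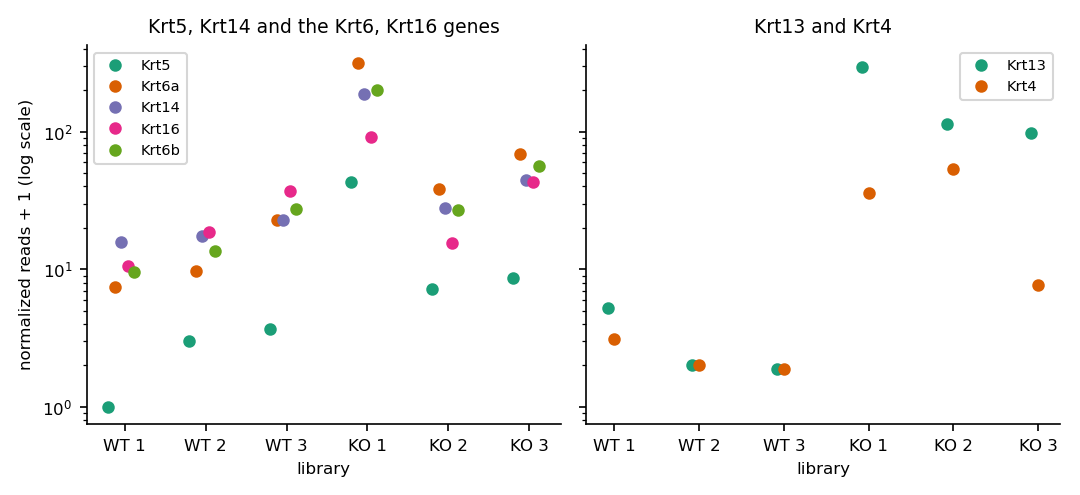
Normalized reads plus 1 on a log scale in each library for Krt5, Krt6a, Krt6b, Krt14 and Krt16 (left) and for Krt13 and Krt4 (right). On the left knockout replicate 1 is highest and knockout replicate 3 exceeds knockout replicate 2 for each gene, and on the right Krt4 is highest in knockout replicate 2.

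Some markers of other cell types differed between the groups, and the part of such cells in the keratin values was not tested. The counts called in each marker list of this and the next paragraph stand against 15.0% of all genes higher and 15.4% lower. At an unadjusted p under 0.05 in limma these shares were 22.1% and 22.4%. In a bulk sample more cells of a type and more RNA per cell cannot be told apart. Of 30 markers of squamous epithelium, such as that of the anal canal, 29 were in the table and 11 were tested, of which 2 rose and 0 fell, while at an unadjusted p under 0.05 limma placed 4 higher and 1 lower and edgeR and DESeq2 called 0 lower. Their summed level was 7798 to 13141 normalized reads in wild type and 6941 to 8839 in the knockout, most of it from Tgm3 (5673 ± 2402 and 2043 ± 1441, SD, n = 3, limma adjusted p = 0.0916) and Sprr1a (1860 ± 720.1 and 2423 ± 1005, limma adjusted p = 0.518), so the sum does not follow the low members. With wild type replicate 1 or with wild type replicate 2 omitted, the list had 1 gene raised. The 2 that rose were Csta1, a cysteine protease inhibitor of the cornified envelope, from 28.6 ± 19.5 to 347.1 ± 110.6 (SD, n = 3, limma adjusted p = 0.00157), and the serpin gene Serpinb5, from 891.3 ± 69.5 to 1473 ± 331.4 (limma adjusted p = 0.0168). Of the defining squamous markers, Dsg3 was above the filter and the others were low. Krtdap had no read in any library, Trp63, the master regulator of stratified epithelium, was at 0 in wild type and 2.1, 0 and 1.9 in the knockout, Dsc3 reached 1 and Ivl 3.8 in knockout replicate 3 only, and Col17a1 and Lor reached 8.4 and 10.5. Dsg3, a desmosomal cadherin of stratified epithelium, was 7.4, 2.9 and 14.6 in wild type and 30.4, 12.4 and 22 in the knockout (limma adjusted p = 0.0954), in the same order of knockout libraries as Krt14. Flg was not analysed here. The summed level of the 7 defining markers in the table was 6.84 to 20 in wild type and 21.7 to 51.4 in the knockout. Cnfn, Calml3 and Sprr3 were also at 0 in every library. Tgm1, a cross-linking enzyme of the cornified envelope that was too low to be tested, was 0, 0 and 2.7 in wild type and 33.5, 7.2 and 12.4 in the knockout, without overlap and with the knockout libraries in the order of Krt14. Lgals7 was 1.1, 1 and 0.9 in wild type and 18.9, 0 and 1.9 in the knockout, high in knockout replicate 1. Tgm1 and Lgals7 were named outside the rule given below, and other members of the list did not follow them. Sbsn was 10.6 ± 6.98 and 12.7 ± 7.48, Cdsn 19.6 ± 1.25 and 16.4 ± 4.03, and Scel 24.8 ± 14.7 and 20.4 ± 4.22 (SD, n = 3). Their limma adjusted p values were 0.809, 0.504 and 0.958.

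Of 16 stromal markers 9 were tested, 2 rose (Lyve1 and Dcn) and 0 fell, with 3 higher and 1 lower at an unadjusted p under 0.05 in limma and 0 lower by edgeR and DESeq2. Sox10 was at 0 in every library. Their summed level was 661.2, 961.2 and 1187 in wild type and 2699, 1014 and 1408 in the knockout, highest in knockout replicate 1 as for the stratified keratins. The groups overlapped, with knockout replicate 2 below wild type replicate 3. Mesothelium, the outer lining of the colon, also makes Krt7, Krt8, Krt18 and Krt19. Of 8 mesothelial markers 7 were in the table and 2 were tested, of which Msln rose, from 10.9 ± 4.90 to 252.2 ± 103.9 (SD, n = 3, limma adjusted p = 0.000803), and 0 fell, also at an unadjusted p under 0.05 and by edgeR and DESeq2. The summed mesothelial level was 39.3 to 75.6 in wild type and 207.2 to 558.7 in the knockout. Most of the knockout sum was Msln, at 358.5, 247.3 and 150.8, so the sum mainly follows that gene. Upk1b, the other tested marker, was 29.9 ± 4.11 and 32.2 ± 13.3 (SD, n = 3, limma adjusted p = 0.934). Among the untested mesothelial markers Upk3b was 4.2, 6.8 and 14.6 in wild type and 59.8, 7.2 and 5.7 in the knockout. Lrrn4 was 0, 2 and 4.6 against 48.2, 0 and 4.8, and both were high in knockout replicate 1 alone. Of 24 immune markers 22 were in the table and 14 tested, 9 rose and 1 fell, with a summed level of 1042 to 1630 in wild type and 3618 to 8538 in the knockout. The calprotectin genes S100a8 and S100a9 rose from 15.6 ± 4.52 to 1227 ± 801.2 and from 17.7 ± 1.14 to 1189 ± 1017 (SD, n = 3, limma adjusted p = 0.000322 and 0.000919), and Cd14 rose too (limma adjusted p = 0.00241). In the knockout libraries S100a8 was 2129, 953 and 598.6, S100a9 2330, 859.8 and 377.1, and Cd14 1490, 764.6 and 843. A large part of the summed immune level in the knockout was therefore S100a8, S100a9 and Cd14.

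Beyond the stratified and simple lists, 11 of the 44 unlisted keratin genes could be tested, 12 had no read in any library and 21 had too few. Krt90, a type II keratin gene of the chromosome 15 cluster (Entrez 239673, 101552356 to 101562950), was the 1 of these 11 that rose, against 15.0% of all genes. It was without a read in all 3 wild-type libraries and had 126.8, 22.8 and 27.7 normalized reads in the knockout libraries (limma adjusted p = 0.0018). It passed the filter only through those knockout libraries, so a call was favoured. With a floor of 3 reads per wild-type library the knockout mean of Krt90 was at least 20-fold higher, or at least 8.55-fold without knockout replicate 1. None of the 11 fell, against 15.4% of all genes (0 also at an unadjusted p under 0.05 and by edgeR and DESeq2). At an unadjusted p under 0.05, 4 were higher, against 22.1% of all genes. Among the keratins too low to be tested, Krt222 was lower without overlap, at 9.6, 10.8 and 11.8 in wild type and 5.2, 5.2 and 1.9 in the knockout (33 and 12 reads). Krt27 was higher without overlap (3 and 26 reads), as was Krt4. Of the 12837 genes tested, 3229 were higher and 3278 lower without overlap, so little is read from this. Krt6b, the near-identical neighbour of Krt6a, was 8.5, 12.7 and 26.4 in wild type and 201.3, 25.9 and 55.4 in the knockout (log2 change 2.14, SE 0.72, limma adjusted p = 0.0578). Krt16, the type I partner of the Krt6 proteins, was 9.6, 17.6 and 36.4 against 90.2, 14.5 and 42, with overlapping groups (limma adjusted p = 0.287). Krt80 was 9.6, 10.8 and 10.9 against 87, 14.5 and 23.9 (limma adjusted p = 0.0909). Krt6b and Krt80 were called as well when knockout replicate 2 was left out. With all libraries Krt6b was called by edgeR, by DESeq2 and by limma with library weights, and Krt80 by DESeq2.

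Krt36, a type I keratin of the hair and tongue type that lies next to Krt13, was the most abundant unlisted keratin by reads. Its wild-type values were 150.7, 113.4 and 480.9 and its knockout values 576.6, 449.1 and 679.7 (log2 change 1.47, SE 0.48, limma adjusted p = 0.054), and it was called once the library labelled wild type replicate 3 was left out. That library, labelled wild type, fell inside the knockout range for Krt36, unlike its place for Krt7, Krt13 and Krt20. Krt84 was 54.1, 34.2 and 109.3 against 109, 111.7 and 51.6, with the same wild-type library high (limma adjusted p = 0.397). The remaining tested keratins were not called. Krt15 (log2 change 0.54), Krt78 (0.68), Krt87 (0.63), Krt10 (0.26) and Krt12 (-0.05) had limma adjusted p of 0.201 to 0.928. Krt10 and Krt1, the pair of the cornified skin surface, showed no parallel with Krt13. Krt10 was 23.2 ± 7.30 and 27 ± 2.08 (SD, n = 3), and Krt1 had no read in 5 of the 6 libraries.

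**Figure D4:**
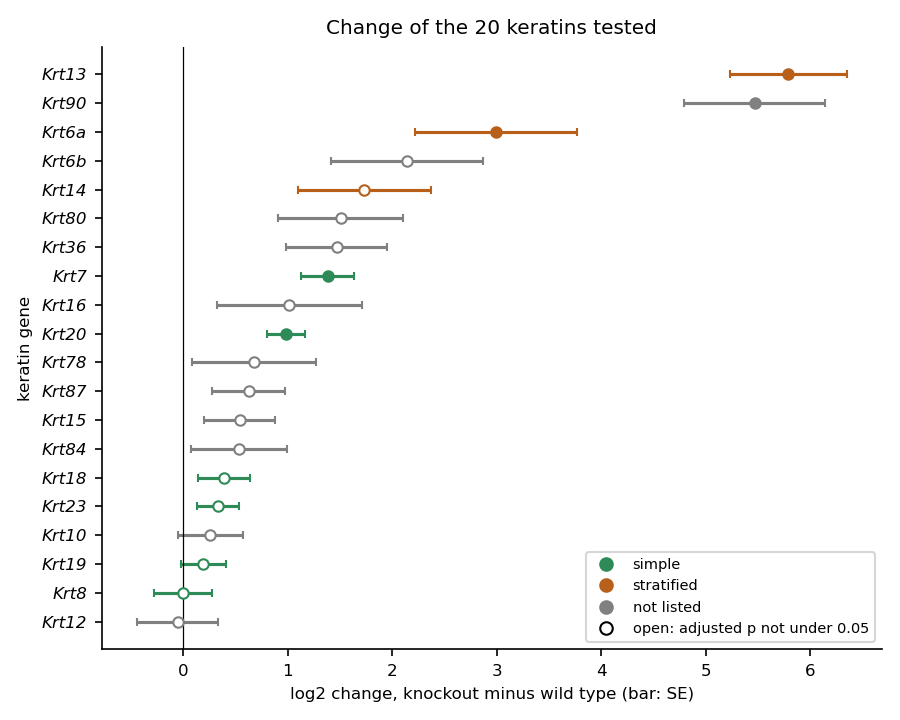
Log2 change, knockout minus wild type, with its SE for the 20 keratins tested, listed simple keratins in green, listed stratified in orange and unlisted in grey, filled where the adjusted p was under 0.05. Krt13 and Krt90 lie farthest to the right, at 5.79 and 5.47, and Krt8 lies at 0.

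Part of each value can be shared between genes of near-identical sequence. Of the 50-base stretches of the annotated Krt6a transcripts, 57.2% also occurred in transcripts of another gene, 40.2% in Krt6b. The share was 29.7% for Krt8, mostly with the pseudogene Krt8-ps, 13.9% for Krt14, with Krt16 and Krt17, and 12.2% for Krt5. It was 0 for Krt13, Krt19, Krt20 and Krt23 and under 1% for Krt7 and Krt18. The separate values of Krt6a and Krt6b are therefore uncertain, whereas those of Krt13 and Krt20 hold no such stretch. Krt5, Krt6a, Krt7 and Krt8 each overlap a GENCODE gene on the opposite strand, and in a non-stranded library its reads cannot be told apart from theirs.

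Keratin filaments are tied to desmosomes and hemidesmosomes by plakin and plakophilin proteins. Of 15 genes of such anchoring and binding proteins, all tested, 3 rose, 1 fell and 11 were not called. Of all genes 15.0% rose and 15.4% fell. The median log2 change of the 15 was 0.02. Eppk1, or epiplakin, a plakin that binds simple keratin filaments, fell from 2968, 2937 and 2597 to 404.6, 698.4 and 1093 normalized reads (log2 change -2.06, SE 0.31, limma adjusted p = 0.00384), with no overlap. Pkp3 rose from 1468 ± 228 to 2543 ± 265 and Pkp2 from 764 ± 28.8 to 1041 ± 162.1 (SD, n = 3), both plakophilins of the desmosomal plaque (limma adjusted p = 0.00652 and 0.0406). Plec, the plectin gene, which links keratins to other filaments and to hemidesmosomes, rose from 5400 ± 438.6 to 8535 ± 1406 (limma adjusted p = 0.0167). Dsp, the desmoplakin gene, was 8962 ± 377 and 10272 ± 1452 (limma adjusted p = 0.336), and Jup was 6239 ± 812.4 and 6480 ± 403.3 (limma adjusted p = 0.752). With wild type replicate 1 or with wild type replicate 2 omitted, the list had 1 gene raised.

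Of 16 other intermediate filament genes 6 were tested, 2 rose and 1 fell, against 15.0% and 15.4% of all genes. Vim, the vimentin gene of mesenchymal and immune cells, rose from 56.3, 65.5 and 112 to 287.2, 157.3 and 262.5 normalized reads (log2 change 1.60, limma adjusted p = 0.00952), and its highest wild-type value was again that of the library labelled wild type replicate 3. Of the marker lists given above, the summed immune level was higher in every knockout library, a large part of it from S100a8, S100a9 and Cd14. The summed stromal level overlapped between the groups. Bfsp1, a filament gene best known from the lens, rose from 43.65 ± 6.5 to 92.4 ± 10.2 (SD, n = 3, limma adjusted p = 0.00775), and the nuclear lamin gene Lmnb2 fell from 751 ± 57.1 to 529.2 ± 56.5 (limma adjusted p = 0.0186). Lmnb2 lost its call when wild type replicate 1, or wild type replicate 2, was left out.

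Among 26 transcription factors known to act on keratin genes or on squamous and intestinal identity, 18 were tested. Of these 1 rose and 6 fell, against 15.0% and 15.4% of all genes. Grhl3, a grainyhead-like factor of epidermal barrier formation, rose from 13.8, 10.8 and 7.3 to 96.4, 32.1 and 47.7 normalized reads (log2 change 2.26, SE 0.44, limma adjusted p = 0.00896). It had the same order of knockout libraries as Krt6a and Krt14. The stromal genes Dcn and Col3a1 had that order too, and its share among all genes was not counted. Grhl2, a relative of Grhl3, fell from 607 ± 50.6 to 384.6 ± 40.75 (SD, n = 3, limma adjusted p = 0.00849). Fosl1, an AP-1 subunit, fell from 872.1 ± 41.1 to 272.7 ± 87.8 (limma adjusted p = 0.00235) and Klf4, a factor of goblet cell and epidermal differentiation, from 10242 ± 590.1 to 6019 ± 1110 (limma adjusted p = 0.011). The intestinal homeobox gene Cdx1 fell from 2978 ± 640.7 to 1724 ± 279.8 (limma adjusted p = 0.0179). Cdx2, known to activate Krt20 and named after its values were seen, fell from 3093 ± 637.3 to 1951 ± 234.7 (limma adjusted p = 0.0275), while Krt20 was higher in the same libraries. Trp63, Sox2, Pax9 and Tfap2c, factors of stratified epithelium, each had a value of at most 2.1 in every library. They were named outside the rule given below, and other factors of the list were not so low. Zfp750 was 98.05 ± 23.6 and 105.4 ± 31.8 (SD, n = 3, limma adjusted p = 0.813). Sox15 was 4.2, 4.9 and 4.6 in wild type and 4.2, 9.3 and 6.7 in the knockout. Tfap2a was 0, 2 and 1.8 against 6.3, 4.1 and 1.9. With wild type replicate 1 or with wild type replicate 2 omitted, the list had 3 genes lowered.

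Krt20 marks differentiated colonocytes, and other markers of these cells went both ways. Of 16 tested, 3 rose and 4 fell, against 15.0% and 15.4% of all genes. Dhrs9 went from 188.3 ± 77.7 to 1418 ± 392.9 and Guca2a from 24373 ± 6282 to 4521 ± 2456 (SD, n = 3, limma adjusted p = 0.000919 and 0.00301). Cyp2c55 fell as well (limma adjusted p = 0.00158). Of 10 crypt-base markers 0 rose (0 also at an unadjusted p under 0.05 and by edgeR and DESeq2) and 3 fell, namely Sox9, Rgmb and Axin2.

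The genes most like the keratins in profile were ranked by Pearson r of log2 values over the 6 libraries with the mean centred profile of the listed genes, among tested genes whose higher group had a mean of 50 or more. The points share the 2 groups and knockout replicate 1, so a high r mostly repeats these. Closest to the 3 tested stratified keratins were Galnt3, a mucin-type glycosyltransferase (r = 0.999), Myo1c, a class I myosin (r = 0.999), Fam118b (r = 0.998), the small GTPase gene Rhog (r = 0.998) and Ube2l6, an interferon-induced conjugating enzyme (r = 0.997). Galnt3 was 583.8, 579.9 and 639.3 in wild type and 1977, 1097 and 1280 in the knockout. Closest to the 6 simple keratins were Adss (r = 0.998), Arl6ip4 (r = 0.997), Mrpl46 (r = 0.996), Exosc8 (r = 0.993) and Rala (r = 0.993). Adss was 822.6, 785.2 and 1009 in wild type and 1696, 1366 and 1170 in the knockout.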

How the data were processed

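Each deposited value is a normalized signal, in whole-read steps that differ between libraries. Per the submitters' processing notes the authors used FastQC, TopHat, DESeq2 and mm10, with no versions; the read counter and annotation were not given there. In every column 100% of the values were whole multiples of 1 step per library within 0.001, which gave the recovered reads. Entrez numbers were matched to RefSeq symbols on GRCm38.p6 (23666 of 23725). Per the labels' protocols the libraries are TruSeq, non-stranded.

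log2(value + 1) was fitted with limma 3.58.1 in R 4.3.3 (intensity-dependent prior, two-sided, Benjamini-Hochberg, threshold 0.05) for 12837 genes with at least 10 in at least 3 of 6 libraries; the fit was tested on simulated data. The design holds 3 against 3 libraries with no batch in the labels. Chi-square per degree of freedom between replicates was 14.2 to 53.9, so no pair agreed within sampling noise. The labels do not name separate animals, so p-values measure the spread between these libraries, which may be technical.

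The keratins and all lists were chosen with earlier results of these data known. Named by rule were the listed keratins, tested unlisted keratins and the defining squamous markers. The rule also took up to 4 called genes per direction and list (3 per marker list) and the 5 genes most like each class in profile. Other genes, such as Krt4, Tgm1, Tgm3, Sprr1a, Lgals7, Upk3b, Lrrn4, Dsp, Jup and Cdx2, were named outside this rule. Alternatives were pseudocounts of 0.5 and 5, no filter, a filter at 50, TMM, quantile and epithelial-marker scaling, robust empirical Bayes, library weights, count tests on those reads by edgeR 4.0.16 (1887 genes higher, 2006 lower) and DESeq2 1.42.0 (2148 higher, 2016 lower), and each library omitted in turn. Lengths and strands are from GENCODE vM21.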

Additional observations from a re-analysis of the deposited data

How the results depend on the processing

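With 1 library left out, the genes raised numbered 970 to 1782 (1931 with all) and those lowered 953 to 1825 (1979), at 970 and 953 where wild type replicate 1 was omitted. The listed keratins called higher numbered 3 to 5. Unlisted keratins raised numbered 1 to 3 with 1 library left out, 3 with no filter, 0 with a filter at 50 (where Krt90 was not tested), 2 with edgeR, 4 with DESeq2 and 3 with library weights, against 1 (Krt90). With 1 library left out, 1 to 4 anchoring genes rose, 0 to 1 other filament genes fell, 3 to 7 regulators fell and 1 to 3 squamous markers rose. Anchoring genes lowered numbered 2 with library weights. Other filament genes lowered numbered 2 with quantile normalization, with epithelial-marker scaling and with DESeq2. Regulators raised numbered 0 with a filter at 50. The stratified minus simple difference of 2.63 was 1.84 to 3.28 with 1 library left out and 5.43 with a filter at 50, which leaves Krt13 as the stratified keratin tested. The cause of the other changes was not tested.

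No paired analysis was possible because replicates were numbered by accession and the labels match no library of one group to the other. With 3 libraries a group, low counts limit Krt5, Krt4 and the wild-type values of Krt13 to a few reads, and intervals on reads cover counting error only.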
